A study of Homo sapiens with 9 samples.

Results

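Canonical Wnt signaling was examined in prostate cancer cells through 10 genes that it is known to switch on or that feed back on it: *DKK1*, *CCND1*, *CD44*, *MYC*, *AXIN2*, *LEF1*, *LGR5*, *RNF43*, *ZNRF3* and *NKD1*. They were chosen by name, and their expression was summed over the RefSeq transcripts of each symbol. All 10 were among the 27902 genes so summed, and 5 of them were among the 12509 genes that averaged 1 FPKM or more over the libraries, the level needed for a test. FPKM counts fragments relative to the length of a transcript and to the size of a library. RNA-seq was performed on DU145, an established human prostate cancer cell line, labeled as wild type in genotype in every library. Cells expressed a scrambled shRNA (control), *FZD6* shRNA1 or *FZD6* shRNA2, each from a pLKO.1 lentiviral vector, with 3 libraries a group. *FZD6* encodes a Frizzled receptor that is mostly counted as noncanonical. The labels do not say whether the libraries of a group came from separate cultures, so p-values measure only the spread between these libraries, and in RNA from whole cultures fewer expressing cells and less RNA per cell cannot be told apart. In the main limma fit of knockdown against control, which pools both shRNAs, that spread includes any difference between the shRNAs.

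In canonical signaling, a Wnt ligand bound to a Frizzled receptor and an LRP coreceptor spares β-catenin from destruction, and β-catenin then enters the nucleus and works with TCF and LEF factors on target genes. Several of these targets act against the pathway. DKK1 is secreted and blocks the LRP coreceptors, AXIN2 rebuilds the complex that destroys β-catenin, NKD1 binds Dishevelled, and RNF43 and ZNRF3 are membrane ubiquitin ligases that remove Frizzled receptors. LGR5 is a receptor for R-spondins, which in turn inactivate these ligases, and LEF1 is itself a nuclear partner of β-catenin. CCND1 (cyclin D1), MYC and CD44 are the targets most often followed for growth and adhesion, and all of them also answer to other pathways.

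The knockdown itself and the identity of the cells were checked first. *FZD6* was at 20.92, 20.54 and 20.04 FPKM in the control libraries, at 9.47, 10.22 and 9.80 FPKM with shRNA1 and at 7.84, 8.79 and 7.69 FPKM with shRNA2. All 6 knockdown libraries lay below all 3 control libraries, with a log2 change of −1.12 (standard error 0.085, limma adjusted p = 0.00049), and *FZD6* was lower with shRNA2 than with shRNA1 (log2 difference −0.25, limma adjusted p = 0.0273), a difference that did not pass without control replicate 2, any shRNA1 library, or shRNA2 replicate 1 or 3 (limma, adjusted p from 0.0521 to 0.0986). The 5 epithelial markers *KRT8*, *KRT18*, *KRT19*, *EPCAM* and *CDH1* were all above 1 FPKM. *KLK3*, *KLK2* and *TMPRSS2*, known as genes of the prostate luminal epithelium, stayed under 1 FPKM. None of the fibroblast or endothelial markers reached 1 FPKM. Of the immune markers, *PTPRC* and *CD3E* were at or near 0, and *CD68*, a lysosomal protein gene that is not restricted to immune cells, was tested, at 17.4 FPKM in control cells. *CD68* rose by 0.42 on the log2 scale in knockdown cells (limma, adjusted p = 0.00503), and its part in the changes of the 10 genes was not tested.

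**Figure D1:**
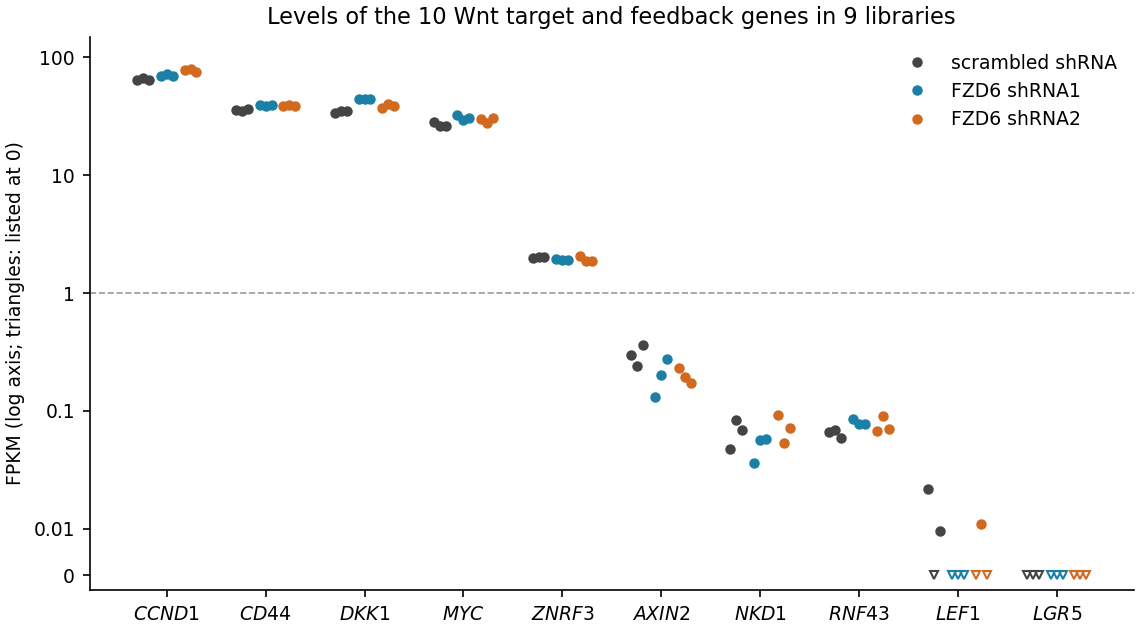
Expression of each of the 10 genes in the 9 libraries, in FPKM on a log axis, with 1 point a library colored by shRNA and open triangles where a gene is listed at 0. The dashed line marks 1 FPKM, and 5 genes lie above it in every library while the other 5 lie below it in every library.

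The 10 genes fell into 5 that were expressed in DU145 cells and 5 that were barely detected or not detected. In control cells the order of the means ran from *CCND1* at 64.7 FPKM through *CD44* at 35.8, *DKK1* at 34.5 and *MYC* at 27.0 to *ZNRF3* at 2.01 FPKM. These levels were higher than those of 89.1%, 81.2%, 80.4%, 75.4% and 12.5% of the tested genes. Below 1 FPKM followed *AXIN2* at 0.298 FPKM, *NKD1* at 0.0670, *RNF43* at 0.0643 and *LEF1* at 0.0104 FPKM, and *LGR5* was listed at 0. The ranges of neighbors in this order did not overlap, except those of *NKD1* and *RNF43* and those of *LEF1* and *LGR5*. Thus the growth and adhesion targets and the secreted inhibitor were abundant, and of the feedback genes that act inside the cell or at the membrane only *ZNRF3* passed 1 FPKM. The order changed in 1 place among the expressed genes. With shRNA1 the mean of *DKK1*, 44.4 FPKM, was above that of *CD44*, 39.5 FPKM, with no overlap between libraries, and with shRNA2 both genes overlapped at 38.8 and 39.0 FPKM.

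**Figure D2:**
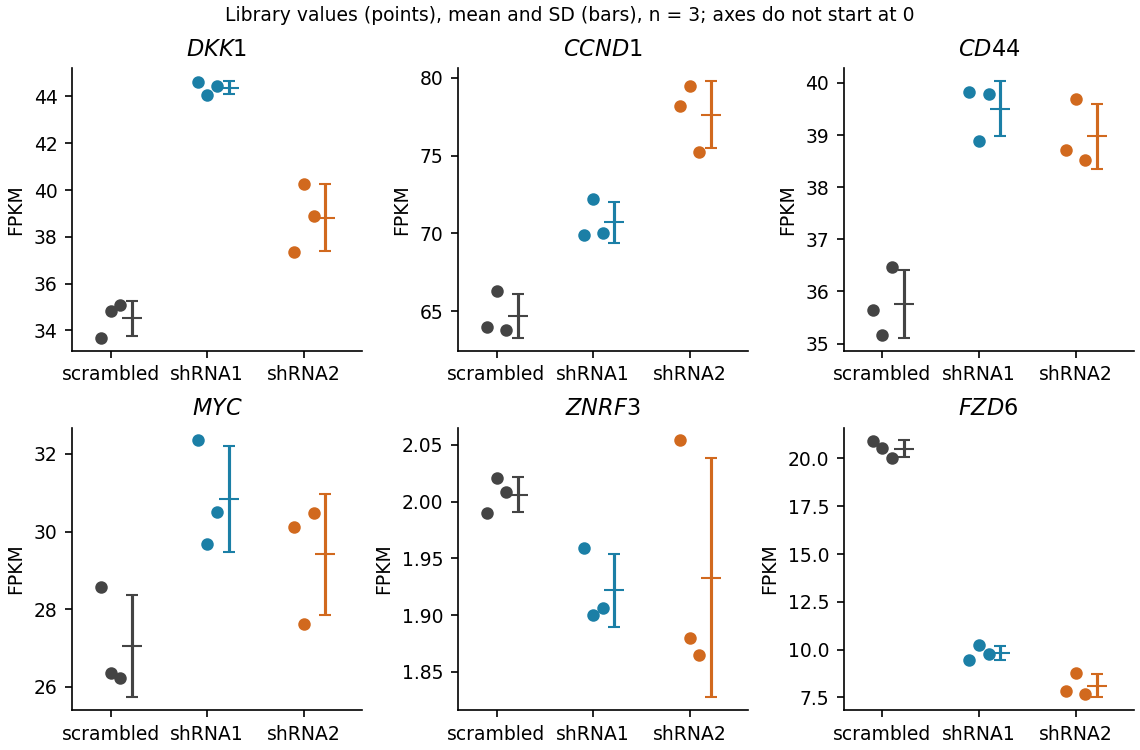
Expression in FPKM in each library for the 5 expressed genes and for *FZD6*, with the mean and SD of the 3 libraries beside the points; each panel has its own axis, which does not start at 0. *DKK1*, *CCND1* and *CD44* are higher in all 6 knockdown libraries than in all 3 control libraries, and the shRNAs stand in opposite order for *DKK1* and *CCND1*.

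*DKK1*, the secreted inhibitor, lies on chromosome 10 from 52314281 to 52317657 in the human build GRCh38 and has 1 RefSeq transcript. Its promoter was among those of 4 of the 10 genes that a RefSeq promoter table of GRCh38.p14 holds, and the 250 bases before its start are shown because they hold the only matches to the TCF and LEF motif found in the 4 genes. They span chr10:52314031-52314280 on the plus strand, and capitals mark the matches.
*DKK1* promoter: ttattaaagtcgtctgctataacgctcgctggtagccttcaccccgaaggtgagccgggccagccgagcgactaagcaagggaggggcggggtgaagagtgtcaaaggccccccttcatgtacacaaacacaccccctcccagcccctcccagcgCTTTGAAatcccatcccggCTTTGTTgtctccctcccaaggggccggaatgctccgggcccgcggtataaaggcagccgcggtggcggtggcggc
The search was for CTTTG followed by AA, AT, TA or TT on both strands, and the matches in this window do not overlap. The first match, CTTTGAA, begins 95 bases before the start and the second, CTTTGTT, 76 bases before it. Of all 35116 promoter windows of 300 bases in the table, 13.75% hold at least 1 match. The windows of *CD44*, *LEF1* and *RNF43*, the last with 2 windows, hold none of these words, which says only that the letters are not there. The *LEF1* window (chr4:108166252-108166551, minus strand) and 1 of the *RNF43* windows lie inside the span of their genes. The bases before the outermost start of *LEF1* were thus not searched. A match is a description of the sequence and was not tested as a binding site.

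*DKK1* rose with both shRNAs, and more with shRNA1. It was at 33.7, 34.8 and 35.1 FPKM in the control libraries, at 44.6, 44.1 and 44.4 FPKM with shRNA1 and at 37.4, 40.2 and 38.9 FPKM with shRNA2. The 3 groups did not overlap, and their order was control, shRNA2, shRNA1. The mean was 28.6% above control with shRNA1 (log2 change on the log2(FPKM + 1) scale 0.35, standard error 0.032, limma adjusted p = 0.00192) and 12.5% above control with shRNA2 (log2 change 0.16, limma adjusted p = 0.0103). Between the shRNAs the difference itself passed the test, at −0.19 for shRNA2 against shRNA1 (95% interval −0.26 to −0.11, limma adjusted p = 0.0161). Without shRNA1 replicate 1, 2 or 3 this difference did not pass (limma, adjusted p = 0.0654, 0.0587 and 0.0619). Only 146 of the 12509 tested genes, 1.17%, had 3 groups apart in this order. Over the 6 knockdown libraries the log2 change was 0.26 (standard error 0.062, limma adjusted p = 0.0217; exact permutation test, two-sided, p = 0.0238, which 6 libraries against 3 cannot go below in this form). Without control replicate 1, 2 or 3 the same limma p was 0.0862, 0.0722 and 0.0583, so the pooled call of *DKK1* needed all 3 control libraries. The call with shRNA1 held under all 24 alternatives run for it. The upper confidence bounds given beside the FPKM correspond to 2028 to 3195 *DKK1* fragments a library if they follow counting error alone.

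*CCND1*, which encodes cyclin D1, the partner of CDK4 and CDK6 in the passage through G1, is on chromosome 11 from 69641156 to 69654474 and also has 1 RefSeq transcript. It rose with both shRNAs too, but more with shRNA2. The control libraries had 64.0, 66.3 and 63.8 FPKM, the shRNA1 libraries 69.9, 72.2 and 70.0 FPKM, and the shRNA2 libraries 78.2, 79.5 and 75.3 FPKM. Again no groups overlapped, in the order control, shRNA1, shRNA2, an arrangement held by 275 tested genes or 2.2%. The mean was 9.31% above control with shRNA1 (log2 change 0.13, standard error 0.031, limma adjusted p = 0.0298) and 19.995% above control with shRNA2 (log2 change 0.26, limma adjusted p = 0.00182). The call with shRNA1 was lost without control replicate 1 or 3 and without any shRNA1 library (limma, adjusted p from 0.0685 to 0.0959). The difference between the shRNAs was 0.13 (95% interval 0.06 to 0.20, limma adjusted p = 0.0463), and this call was lost under 14 of 24 alternatives, with adjusted p from 0.0111 to 0.505 over all of them, among them the removal of any library other than shRNA2 replicate 3. Over the 6 knockdown libraries the log2 change was 0.19 (standard error 0.047, limma adjusted p = 0.0236; two-sided exact permutation test, p = 0.0238). This pooled call was lost without control replicate 1, 2 or 3, with limma adjusted p of 0.0871, 0.0613 and 0.0803. *CCND1* was the best covered of the 10 genes, with 9415 to 12794 fragments a library by the same estimate.

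**Figure D3:**
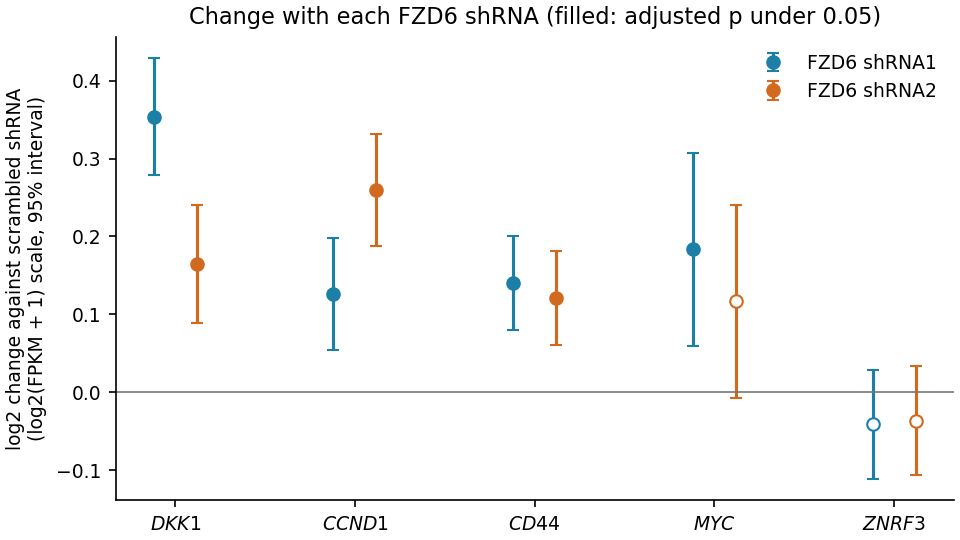
Log2 change of the 5 expressed genes with each *FZD6* shRNA against the shared control libraries, with 95% intervals from the limma model with 3 groups; filled points have an adjusted p under 0.05. *DKK1* changed by 0.35 with shRNA1 and 0.16 with shRNA2, *CCND1* by 0.13 and 0.26, and *CD44* by 0.14 and 0.12.

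*CD44*, a receptor for hyaluronan at the cell surface, lies on chromosome 11 from 35139171 to 35232402. Its values were 35.6, 35.2 and 36.5 FPKM in the control libraries, 39.8, 38.9 and 39.8 FPKM with shRNA1 and 38.7, 39.7 and 38.5 FPKM with shRNA2. All knockdown libraries lay above all control libraries, while the shRNAs overlapped. *CD44* rose by 0.13 on the log2 scale over the 6 knockdown libraries (standard error 0.024, limma adjusted p = 0.00847; two-sided exact permutation test, p = 0.0238), by 0.14 with shRNA1 (limma, adjusted p = 0.0121) and by 0.12 with shRNA2 (limma, adjusted p = 0.0132). Without shRNA1 replicate 3 the call with shRNA1 was lost (limma, adjusted p = 0.051). The difference between the shRNAs was −0.02 (95% interval −0.08 to 0.04, limma adjusted p = 0.722). Among the 3 called genes *CD44* had the smallest pooled log2 change. Its pooled call held under 23 of 25 alternatives, among them the removal of any single library, and was lost with quantile normalization (limma, adjusted p = 0.0681) and with rescaling to equal summed FPKM (limma, adjusted p = 0.309).

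*CD44* is known for the splicing of its variable exons, and 8 RefSeq transcripts were listed. NM_001001391, the short standard form without variable exons, held 88.7% ± 0.73 of the summed FPKM in control cells (SD, n = 3) and 88.1% ± 2.19 in knockdown cells (SD, n = 6; two-sided exact permutation test, p = 0.786). NM_001202555 was next with 6.48% in control and 6.77% in knockdown cells (n = 3 and 6, two-sided exact permutation test, p = 0.786). Each of the other 6 had a mean share under 2% in both groups. A pooled shift of these 2 transcripts was thus not detected, and the other 6 were not tested. NM_001202555 had mean shares of 5.36% with shRNA1 and 8.19% with shRNA2, on either side of control, and NM_001202557 had 1.36% in control cells, 2.11% with shRNA1 and 1.36% with shRNA2. Leaving out shRNA2 replicate 2 turned the sign of both small differences, to 0.0754 and −0.331 percentage points. The split between transcripts is an estimate by Cufflinks, not a count.

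*MYC*, a transcription factor of growth and ribosome genes, is on chromosome 8 from 127735434 to 127742951. It was at 28.6, 26.3 and 26.2 FPKM in the control libraries, at 32.4, 29.7 and 30.5 FPKM with shRNA1 and at 30.1, 27.6 and 30.5 FPKM with shRNA2. The shRNA1 libraries were all above control, whereas shRNA2 replicate 2 lay below control replicate 1, so that 5 of the 6 knockdown libraries were above the highest control. Over the 6 libraries the log2 change of *MYC* was 0.15 (95% interval 0.04 to 0.26) and did not pass the test (limma, adjusted p = 0.0587; two-sided exact permutation test, p = 0.0476). With shRNA1 it rose by 0.18 (limma, adjusted p = 0.0498), a call lost under 18 of 24 alternatives, among them the removal of any library other than shRNA2 replicate 2. With shRNA2 the log2 change was 0.12 (95% interval −0.01 to 0.24, limma adjusted p = 0.144), and the difference between the shRNAs was −0.07 (95% interval −0.19 to 0.06, limma adjusted p = 0.515). Without shRNA2 replicate 2 the pooled change of *MYC* was 0.17 and passed (limma, adjusted p = 0.0171). The pooled change passed under 4 of 25 alternatives, this one among them.

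*ZNRF3*, on chromosome 22 from 28883572 to 29057488, was the only expressed gene of the 10 with lower means in knockdown cells. Its 9 values stayed between 1.86 and 2.05 FPKM. The control libraries had 1.99, 2.02 and 2.01 FPKM, the shRNA1 libraries 1.96, 1.90 and 1.91 FPKM, and the shRNA2 libraries 2.05, 1.88 and 1.86 FPKM. The shRNA1 libraries were all below control by a narrow margin, and shRNA2 replicate 1 was the highest of all. The log2 change was −0.04 over the 6 knockdown libraries (95% interval −0.10 to 0.02, limma adjusted p = 0.333; two-sided exact permutation test, p = 0.143). It was −0.04 with each shRNA, with limma adjusted p of 0.368 and 0.407.

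*AXIN2*, the target most often used as a readout of β-catenin, lies on chromosome 17 from 65528563 to 65561648. It was at 0.295, 0.241 and 0.359 FPKM in the control libraries, at 0.132, 0.2004 and 0.276 FPKM with shRNA1 and at 0.229, 0.193 and 0.171 FPKM with shRNA2. Of the 6 knockdown libraries, 5 lay below the lowest control, and all 3 of shRNA2 did. *AXIN2* was under the level needed for a test. In a fit without that limit its log2 change was −0.11 (limma, adjusted p = 0.134), and with pseudocounts of 0.1 and 0.01 in place of 1 it was −0.41 and −0.57 (limma, adjusted p = 0.145 and 0.172), so the size depended on the pseudocount and no change passed. Cufflinks moved the *AXIN2* signal between its 2 transcripts from library to library, with shares of NM_004655 from 0.00955% to 99.9%.

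*RNF43*, on chromosome 17 from 58352500 to 58417534, had 0.0656, 0.0684 and 0.0590 FPKM in the control libraries, 0.0845, 0.0772 and 0.0774 FPKM with shRNA1 and 0.0679, 0.0906 and 0.0698 FPKM with shRNA2. All shRNA1 libraries and 2 of the shRNA2 libraries were above the highest control. *NKD1*, on chromosome 16 from 50548396 to 50649249, had 0.0474, 0.0843 and 0.0693 FPKM in the control libraries, 0.0364, 0.0564 and 0.0571 FPKM with shRNA1 and 0.0920, 0.0530 and 0.0712 FPKM with shRNA2, and its groups overlapped throughout. Without the limit on level the log2 changes were 0.02 for *RNF43* (limma, adjusted p = 0.301) and −0.01 for *NKD1* (limma, adjusted p = 0.866). With pseudocounts of 0.1 and 0.01 they ran from 0.11 to 0.24 for *RNF43* (limma, adjusted p from 0.158 to 0.171). For *NKD1* they ran from −0.13 to −0.05 (limma, adjusted p from 0.803 to 0.814). The sizes thus depended on the pseudocount and no change passed. *NKD1* has 1 long RefSeq transcript, and its values rest on about 24 to 59 fragments a library by the estimate from the bounds. Those of *RNF43* rest on fewer, about 10 to 17 a library.

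*LEF1*, on chromosome 4 from 108047548 to 108168932, was listed at 0.0218, 0 and 0.00948 FPKM in the control libraries, at 0 in all 3 libraries with shRNA1 and at 0, 0.0109 and 0 FPKM with shRNA2. Its value above 0 corresponded to at most 1.33 fragments in any library. *LGR5*, on chromosome 12 from 71439129 to 71586310, was listed at 0 for all 4 of its transcripts in all 9 libraries. Differences in *LEF1* and *LGR5* were not detectable at this depth.

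Counts of called genes among the 10 were read against all genes. Of the 5 tested genes, 3 (*DKK1*, *CCND1* and *CD44*) were called in knockdown against control, all higher, where 20.6% of the 12509 tested genes were called and 13.5% were called higher. With shRNA1, 4 of 5 were called higher (*MYC* in addition) beside 11.7% of tested genes, and with shRNA2, 3 of 5 beside 15.3%. Between the shRNAs, 2 of 5 were called (*DKK1* lower and *CCND1* higher with shRNA2) beside 6.71%. The comparisons with each shRNA share the control libraries. Every knockdown library lay above every control library for 3 of the 5 genes and for 16.4% of tested genes. Of the 3954 genes that averaged 20 FPKM or more, 26.4% were called higher. This level was chosen after the values were seen, and *DKK1*, *CCND1*, *CD44* and *MYC* all exceed it. Of the 5 tested genes, none met the study's criteria of an unadjusted p under 0.01 and at least 1.2-fold, which 2.89% of tested genes met. They were applied here on the log2(FPKM + 1) scale to genes that averaged 1 FPKM or more. The study names neither a pseudocount nor such a limit, and it reports more genes than were called here. *DKK1* at 1.197-fold, *CCND1* at 1.14-fold and *CD44* at 1.09-fold passed the first of these criteria and missed the second, *DKK1* only through the pseudocount. With pseudocounts of 0.1 and 0.01, chosen after the values were seen, *DKK1* was at 1.202-fold and met both criteria, as 4.19% and 4.34% of tested genes did, and its mean FPKM was 20.5% above control.

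Transcript length moved with the changes. Across the 12295 tested genes with a length in GENCODE v29, longer genes had lower log2 changes in knockdown cells (Spearman rho −0.435, across genes, which are not independent replicates). *DKK1*, with 1790 bases, is shorter than the median tested gene, with 2643 bases, while *CCND1*, with 4307 bases, and *CD44*, with 4280 bases, are longer. With the length trend removed in each library, the pooled log2 change of *DKK1* fell from 0.26 to 0.19 (limma, adjusted p = 0.0774) and that with shRNA2 from 0.16 to 0.10 (limma, adjusted p = 0.0837), so that both calls were lost, while the change with shRNA1 was 0.28 and passed (limma, adjusted p = 0.00593). The pooled changes of *CCND1* and *CD44* were then 0.21 and 0.15 (limma, adjusted p = 0.0209 and 0.0093). The summed FPKM of a library over all entries also varied, from 742217 to 773024 in control cells, 753145 to 784839 with shRNA1 and 739099 to 818166 with shRNA2. The rescaling equalized a slightly different sum, over the genes kept, without unmatched transcripts and the genes left out. When each library was rescaled to the same sum, an alternative chosen after the values were seen, the pooled log2 changes of *DKK1*, *CCND1* and *CD44* were 0.21, 0.15 and 0.08 and none of the 3 passed (limma, adjusted p = 0.156, 0.162 and 0.309). With shRNA1 alone *DKK1* still passed (limma, adjusted p = 0.0408). Tested as single transcripts, *DKK1* and *CCND1* were not called over the 6 libraries (limma, adjusted p = 0.0997 and 0.119), where 248 of 19658 transcripts or 1.26% were. *DKK1* was called with shRNA1 (limma, adjusted p = 0.0344), where 0.422% of transcripts were, and *CCND1* with shRNA2 (limma, adjusted p = 0.0334), where 2.83% were. The short standard form of *CD44* was not called over the 6 libraries, with shRNA1 or with shRNA2 (limma, adjusted p = 0.186, 0.15 and 0.304). Nor was the more abundant *MYC* transcript (limma, adjusted p = 0.21, 0.198 and 0.352).

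**Figure D4:**
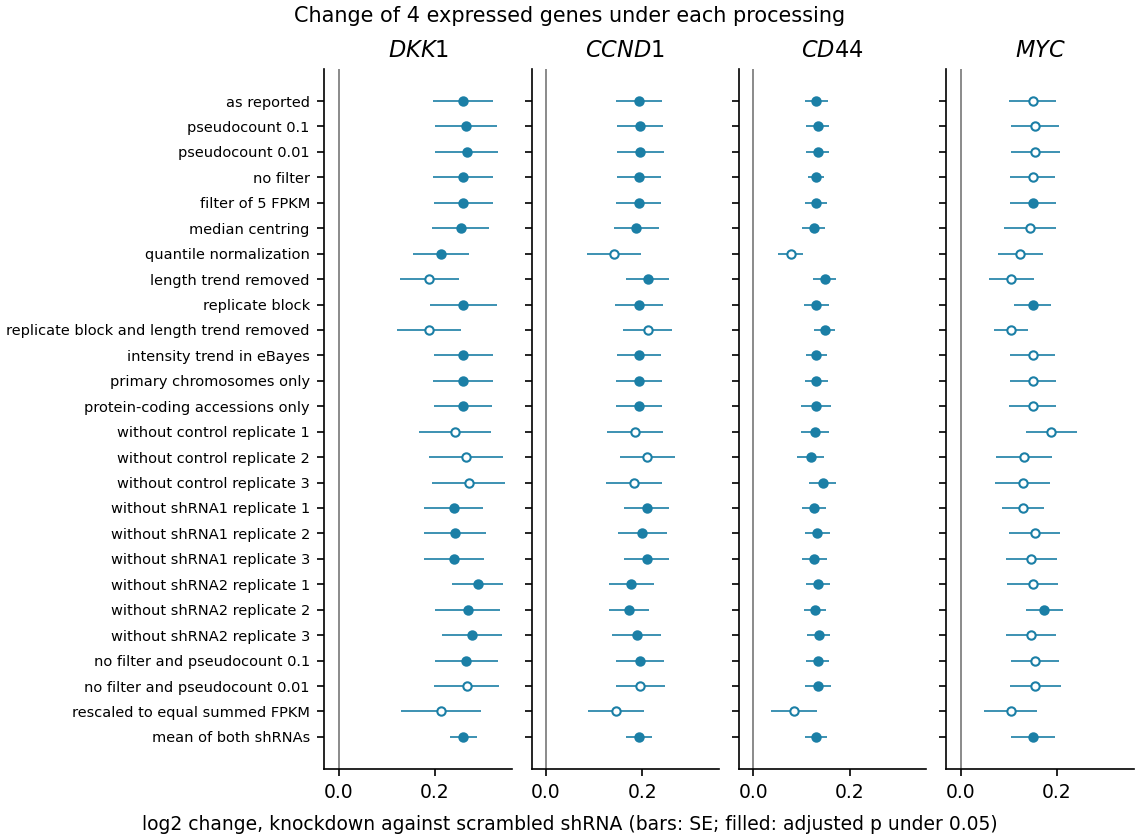
Pooled log2 change of *DKK1*, *CCND1*, *CD44* and *MYC* in knockdown against control under each processing tried, with standard errors; filled points have an adjusted p under 0.05. All changes are above 0, *CD44* keeps its call in 24 of 26 forms and *MYC* is called in 4.

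Other genes of the pathway were described from lists chosen by role, beside a median log2 change of 0.03 over all tested genes. Of 40 further genes reported as β-catenin targets, 21 were tested, 6 were called higher and 2 lower, beside 13.5% and 7.1% of all tested genes, with a median log2 change of 0.03. Over the alternatives run, 2 to 10 were called in knockdown against control, in either direction. With shRNA1 alone 6 were called higher and 2 lower, and with shRNA2 alone 8 and 2. Of all 12509 tested genes, 11.7% were called higher with shRNA1 and 15.3% with shRNA2, and 899 and 1422 were called lower. The largest rise in the pooled comparison was that of *FOSL1*, a subunit of AP-1, from 98.2 FPKM in control cells to 140 and 128 FPKM with shRNA1 and shRNA2 (log2 change 0.44, limma adjusted p = 0.00253). *MET*, the receptor for hepatocyte growth factor, rose by 0.24, *PLAUR*, the urokinase receptor, by 0.22, *EDN1* (endothelin 1) by 0.22 and *JUN*, another AP-1 subunit, by 0.17, whereas *PPARD*, a nuclear receptor, fell by 0.19 (limma, adjusted p from 0.00371 to 0.0236 for these 5). The calls of *EDN1* and *MET* were lost without control replicate 1 or 3 and that of *PPARD* without control replicate 1 (limma, adjusted p from 0.0515 to 0.0912). In all of these except *EDN1* the limma test also passed with each shRNA alone.

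Inhibitors and transducers of the pathway were next. None of the 6 tested of 18 other secreted and membrane inhibitors was called by limma in knockdown against control, with a median log2 change of −0.02 and 1 gene at an unadjusted p under 0.05. Among them *SFRP1*, a secreted Wnt binding protein, was at 11.08, 11.07 and 10.02 FPKM in control, shRNA1 and shRNA2 cells, and it was lower with shRNA2 alone (log2 change −0.13, limma adjusted p = 0.0204). *KREMEN1*, a receptor for DKK proteins, was lower with shRNA1 alone (log2 change −0.20, limma adjusted p = 0.0217), and *DKK2* and *DKK4* were listed at 0. Single comparisons called 18.8% of all tested genes with shRNA1 and 26.7% with shRNA2, and knockdown against control called 20.6%. Of 10 tested intracellular inhibitors, 1 was called higher in knockdown against control (*CBY1*, which binds β-catenin, log2 change 0.20, limma adjusted p = 0.00936) and 1 lower (*TLE3*, a corepressor bound by TCF factors, log2 change −0.20, limma adjusted p = 0.0121). Of all tested genes, 13.5% were called higher and 7.1% lower. *TLE3* was not called without control replicate 1 or 2 (limma, adjusted p = 0.0558 and 0.0591). *FBXW11*, part of a ubiquitin ligase that marks β-catenin for destruction, went from 14.2 to 12.8 and 9.38 FPKM, with all knockdown libraries below control. It did not pass in the pooled comparison (log2 change −0.34, limma adjusted p = 0.0895) but was called lower with shRNA1 (−0.13, limma adjusted p = 0.0467), with shRNA2 (−0.55, limma adjusted p = 0.000343) and between the shRNAs (−0.42, limma adjusted p = 0.00129). The 3 other TCF genes *TCF7*, *TCF7L1* and *TCF7L2* were expressed, at 5.43, 2.97 and 11.2 FPKM in control cells, with log2 changes from −0.17 to −0.11 that did not pass (limma, adjusted p from 0.0749 to 0.104), although all 3 had an unadjusted p under 0.05, and *TCF7* was lower with shRNA2 alone (−0.16, limma adjusted p = 0.0345). *LGR4*, an R-spondin receptor and the only tested gene of its list, fell by 0.24 on the log2 scale, from 13.79 to 12.08 and 11.04 FPKM (limma, adjusted p = 0.0314), where 7.1% of all tested genes were called lower. It fell with shRNA2 alone (limma, adjusted p = 0.0129) and did not pass with shRNA1 alone (limma, adjusted p = 0.0908), and the difference between the shRNAs was −0.12 (limma, adjusted p = 0.309). The pooled call of *LGR4* was lost without any 1 control library or shRNA1 replicate 3 (limma, adjusted p from 0.0532 to 0.118).

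**Figure D5:**
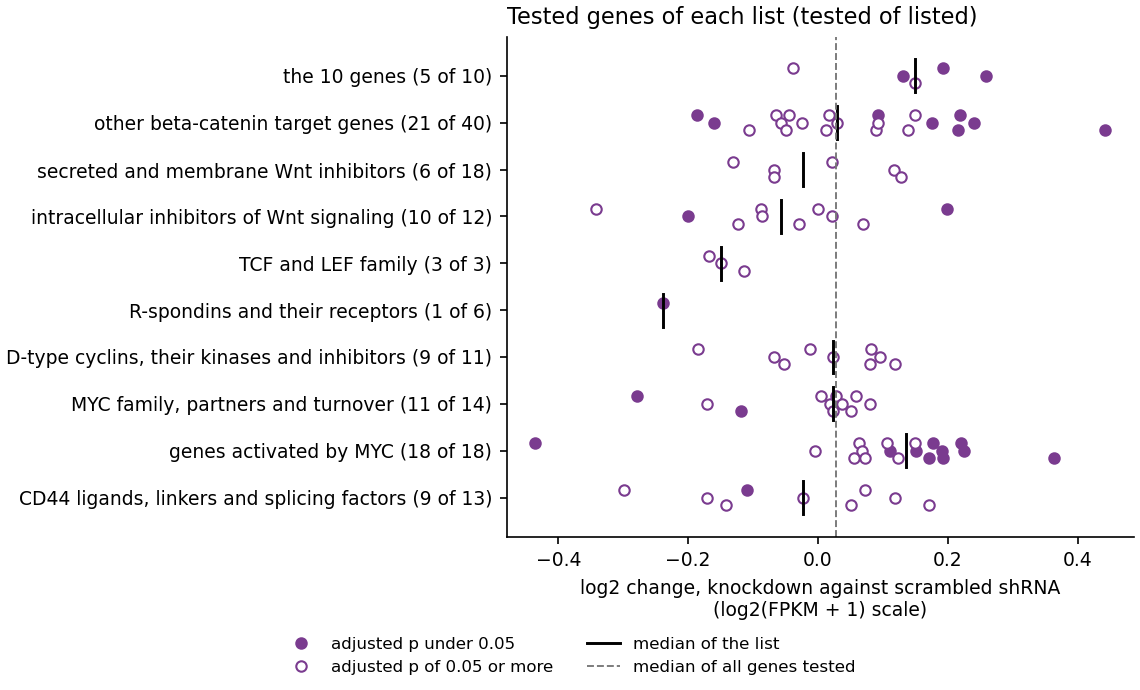
Log2 change in knockdown against control of each tested gene, by list, with the median of the list as a black line and the median of all tested genes, 0.03, dashed; filled points have an adjusted p under 0.05. Genes activated by MYC lie mostly to the right, with 9 called higher and 1 lower, and TCF genes lie to the left with none called in this comparison.

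Partners of the expressed targets were described the same way. Of 18 genes known to be activated by MYC, all were tested, 9 were called higher and 1 lower, with a median log2 change of 0.14. Of these 18, 15 averaged 20 FPKM or more, a level at which 26.4% of genes were called higher, against 13.5% of all tested genes. Over the alternatives run, 4 to 12 of the 18 were called in knockdown against control, in either direction. With shRNA1 alone 8 were called higher and 1 lower, and with shRNA2 alone 10 and 1. Beside these, 11.7% of all 12509 tested genes were called higher with shRNA1 and 15.3% with shRNA2, and 899 and 1422 lower. *ODC1*, the first enzyme of polyamine synthesis, rose from 89.1 to 107 and 123 FPKM (log2 change 0.36, limma adjusted p = 0.0076), and *NPM1*, *NME1*, *SHMT2* and *NOP56* rose by 0.19 to 0.22 (limma, adjusted p from 0.00442 to 0.0215). *CAD*, the enzyme that starts pyrimidine synthesis, went the other way, from 33.4 to 24.3 and 24.5 FPKM (log2 change −0.44, limma adjusted p = 0.00049). In the MYC family, 2 of 11 tested genes or 18.2% were called, both lower. Of all tested genes, 20.6% were called and 7.1% were called lower. The 2 genes were *MXD4* and *MNT*, which both encode repressors that pair with MAX, with log2 changes of −0.28 and −0.12 (limma, adjusted p = 0.00988 and 0.0301). None of 9 tested genes of the other D-type cyclins, their kinases and inhibitors was called by limma in knockdown against control, with 1 at an unadjusted p under 0.05. Of all tested genes, 20.6% were called in this comparison, 18.8% with shRNA1 alone and 26.7% with shRNA2 alone. With shRNA1 alone *CDK4*, a kinase partner of cyclin D1, was higher (log2 change 0.18, limma adjusted p = 0.0341). With shRNA2 alone the kinase inhibitors *CDKN1A* and *CDKN2D* were higher (0.19 and 0.20) and *CDKN1B* was lower (−0.34), with limma adjusted p of 0.0108, 0.0472 and 0.00334. Among 9 tested ligands, linkers and splicing factors of CD44, only *MSN* (moesin, a linker to actin) was called in knockdown against control, with a log2 change of −0.11 (limma, adjusted p = 0.0348). That is 11.1% of these genes, beside 20.6% of all tested genes. With shRNA2 alone *RDX* (radixin, a linker of the same family) was lower, from 40.4 FPKM in control cells to 26.9 FPKM (log2 change −0.57, limma adjusted p = 0.00142), and it was at 39.7 FPKM with shRNA1. *MMP14* and *ADAM10*, proteases that cut CD44, were also lower with shRNA2 (−0.24 and −0.29) and *NF2* (merlin) was higher (0.15), with limma adjusted p of 0.00364, 0.012 and 0.0313. *HMMR*, another hyaluronan receptor, was higher with shRNA1 (0.27, limma adjusted p = 0.00829). Without any 1 control library *NPM1*, *MNT* and *MSN* were not called (limma, adjusted p from 0.0513 to 0.136), nor were *MNT* without any shRNA1 library and *MSN* without shRNA1 replicate 3 or shRNA2 replicate 1 or 3. *NPM1* and *MNT* did not pass with shRNA2 alone (limma, adjusted p = 0.052 and 0.0609), nor did *MSN* with shRNA1 alone (limma, adjusted p = 0.0745).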

How the data were processed

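RNA-seq tables of 9 DU145 libraries were used, with groups taken from the sample labels. Stranded mRNA libraries were mapped with STAR and the authors calculated FPKM with Cufflinks. The deposited FPKM, already relative to transcript length and library size, come with confidence bounds, 1 line for each RefSeq transcript at each place in the genome. The submitters' processing notes name the human build hg38, which these places are in, although the methods name mm10. The tables hold no counts, so depth is known only through the bounds, and 3 libraries a group limit the precision.

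Accessions were paired with symbols through a RefSeq table of GRCh38.p14 (72645 of 73240 matched), FPKM were summed per gene, and 42 genes with an entry not marked as usable by Cufflinks were left out. Genes that averaged 1 FPKM or more were tested as log2(FPKM + 1) with limma 3.58.1 in R 4.3.3, adjusted by the Benjamini-Hochberg method over all 12509 genes at a threshold of 0.05. Knockdown (6 libraries) was compared with control (3) with both shRNAs as a single group, so a difference between the shRNAs counted there as spread between libraries. Each shRNA was compared with control and with the other in a model with 3 groups. Single genes and isoform shares were tested by two-sided exact permutation with scipy 1.17.1. Intervals are at 95% from limma. Transcript lengths came from GENCODE v29. The limma fits and the removal of length trends were tested on simulated data. Alternatives were other pseudocounts, filters, scalings and sums of entries, removal of the length trend by lowess (span 0.3), the replicate number as a block, an intensity trend, the study's criteria and leaving out each library. Chosen after seeing the data were removal of the filter together with a pseudocount of 0.1 or 0.01, rescaling to equal summed FPKM, the study's criteria with these pseudocounts, and the tests of single transcripts. The 10 genes and all lists were chosen with earlier results of these data known. Genes of the lists were named when called in knockdown against control, at most 6 a list by size of change, besides markers, some genes called with 1 shRNA alone and genes named to complete a list, chosen with their values known. Some marker genes of the lists are not reported here.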

Additional observations from a re-analysis of the deposited data

Results flagged for a closer look

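The change of *DKK1* differed between the shRNAs, with a log2 difference of −0.19 for shRNA2 against shRNA1, and all 3 shRNA2 libraries lay below all 3 shRNA1 libraries (limma, adjusted p = 0.0161). The change of *CCND1* differed in the other direction, by 0.13, and all 3 shRNA2 libraries lay above all 3 shRNA1 libraries (limma, adjusted p = 0.0463). For each gene an exact permutation test between the shRNAs (two-sided) had p = 0.1, below which 3 libraries against 3 cannot go. Among the 6 knockdown libraries, *LEF1* was listed above 0 only in shRNA2 replicate 2, at 0.0109 FPKM. This corresponds to 0.498 fragments by the confidence bounds, and with the other 5 libraries at 0 any value above 0 passes Dixon's criterion, so that neither the criterion nor its usual chance of about 1 in 20 says anything here. The other 8 of the 10 genes with values above 0, and *FZD6*, had no library beyond it.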

How the results depend on the processing

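The directions of the tested genes among the 10 held under all alternatives run, against control, and calls moved as follows. The 10 genes had 3 calls in knockdown against control, 4 with shRNA1, 3 with shRNA2 and 2 between the shRNAs. With quantile normalization these were 1 (*DKK1*), 1, 2 and 1. Rescaling to equal summed FPKM gave 0, 1 (*DKK1*), 0 and 0. Without a filter they were 3, 2, 3 and 1 at a pseudocount of 0.1 and 1 (*CD44*), 2, 3 and 0 at a pseudocount of 0.01. A pseudocount of 0.1 alone, and the sum of protein-coding accessions alone, left 1 call between the shRNAs, that of *DKK1*. A filter of 5 FPKM gave 4, 4, 3 and 2, with *MYC* called in the pooled comparison. The mean of both shRNAs in the model with 3 groups gave 4 in knockdown against control, *MYC* among them. By the study's criteria, applied to knockdown against control alone, 0 of the 5 tested genes were called, and 1 (*DKK1*) with a pseudocount of 0.1 or 0.01. Leaving out 1 library gave 1 to 4 calls in knockdown against control, 1 to 4 with shRNA1, 3 with shRNA2 and 0 to 2 between the shRNAs, and each control library was needed for the pooled calls of *DKK1* and *CCND1*. The cause of these moves was not tested, except that leaving out a library leaves fewer libraries in the fit. Over all genes, 2578 were called in knockdown against control (1690 higher and 888 lower), 2357 with shRNA1, 3335 with shRNA2 and 839 between the shRNAs. With the length trend removed 1521 (816 higher and 705 lower) and, with shRNA1, 1510 were called. Quantile normalization gave 2105 (1047 higher and 1058 lower). The mean of both shRNAs in the model with 3 groups gave 3455 (2087 higher and 1368 lower). Rescaling to equal summed FPKM gave 810 (271 higher and 539 lower), 408, 1508 and 357. Without a filter at a pseudocount of 0.01 the numbers were 1427, 1072, 2164 and 409, and at 0.1 it was 1548 with shRNA1. The study's criteria called 361, and 524 and 543 with pseudocounts of 0.1 and 0.01. Leaving out 1 library gave 997 to 3255 in knockdown against control, 917 to 3538 with shRNA1, 2097 to 4195 with shRNA2 and 333 to 1172 between the shRNAs. Of the lists of related genes, 24 genes were called, 13 to 28 without 1 library, 10 with rescaling and 38 with the mean of both shRNAs in the model with 3 groups. Replicate numbers are shared by the groups, but same-numbered libraries did not deviate together, with correlations of their deviations from −0.07 to 0.11, so the numbers were not taken as a pairing. With the replicate block 2377, 2525, 3558 and 802 genes were called, and 4, 4, 3 and 2 of the 10 genes, *MYC* among them in the pooled comparison (limma, adjusted p = 0.0396). With the block and the length trend removed 1108 genes were called in knockdown against control, 1327 with shRNA1, 14 genes of the lists, and 1 of the 10, *CD44*, in knockdown against control. The log2 difference of *FZD6* between the shRNAs, −0.25, lost its call with protein-coding accessions alone (−0.17), without a filter at pseudocounts of 0.1 (−0.28) and 0.01 (−0.28) and with rescaling (−0.28), and it lay between −0.30 and −0.22 without 1 library. Signs turned only for differences near 0, between the shRNAs for *ZNRF3* (−0.0198 with rescaling, −0.0247 to 0.0214 without 1 library) and *AXIN2* (0.0126 without a filter at a pseudocount of 0.01), and for the shares of NM_001001391 (−1.10 to 0.0754 percentage points without 1 library) and NM_001202555 (−0.331 to 1.23). For *CD44* shares on primary chromosomes no other value exists, since all its transcripts lie there. Depth limits *AXIN2*, *NKD1*, *RNF43*, *LEF1* and *LGR5* most.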
